A study of Mus musculus with 12 samples.

Results

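The 10 genes described here encode 8 peptide hormones of the gut (Gip, Sct, Pyy, Cck, Gcg, Sst, Nts and Ghrl) and 2 granins (Chga and Chgb), and they were chosen by name, with earlier results of these data known. They are 10 of the 54232 genes in the count table, and all 10 passed the filter on low counts. RNA came from sorted intestinal stem cells (ISCs) of the small-intestinal crypts of female mice, with a 3-prime sequencing library made for each mouse. The 12 libraries fall into 4 groups of 3. SM6 young (2 months) and SM6 old (22 months) came from WT mice of the strain C57/Bl6. Lgr5-GFP young (2 months) and Lgr5-GFP old (22 months) came from mice of the strain and genotype given in the labels as Lgr5-EGFP-IRES-CreERT (the study's methods write CreERT2), whose reporter is driven by Lgr5, an ISC receptor gene. In the labels the same sort, by the SM6 set of surface markers, is given throughout, but the study also describes sorting the reporter mice by GFP. Strain and isolation change together and cannot be told apart, and the group names are used only as the sample titles give them. Below, a difference between the isolations means one of strain and isolation together.

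Enteroendocrine cells are the scattered hormone-producing cells of the gut epithelium. They arise from the ISCs of the crypt, store their peptides in dense-core granules and release them when nutrients reach the gut. Most of the hormones mark a subset of these cells, whereas secretin and the granins, the structural proteins of the granules, are found more widely. Some crypt progenitors begin to transcribe these genes before they leave the crypt.

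The promoters of Gip, Sct, Pyy and Chga are printed because these hormone genes and this granin carry the comparisons below. Each run holds the 250 bases before the RefSeq start of the gene on GRCm38.p6, read 5′ to 3′ on the strand of the gene. Capitals mark every match on either strand to the E-box CANNTG, the site of basic helix-loop-helix factors, to the TATA motif TATAA, and to TGACG, the core of the cAMP response element.
Gip, chr11:96024295-96024544, plus strand: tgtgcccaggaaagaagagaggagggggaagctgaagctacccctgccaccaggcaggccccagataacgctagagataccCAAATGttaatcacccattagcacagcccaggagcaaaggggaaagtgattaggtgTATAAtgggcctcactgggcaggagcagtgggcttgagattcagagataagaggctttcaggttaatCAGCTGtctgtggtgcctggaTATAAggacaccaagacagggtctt
Sct, chr7:141279134-141279383, minus strand: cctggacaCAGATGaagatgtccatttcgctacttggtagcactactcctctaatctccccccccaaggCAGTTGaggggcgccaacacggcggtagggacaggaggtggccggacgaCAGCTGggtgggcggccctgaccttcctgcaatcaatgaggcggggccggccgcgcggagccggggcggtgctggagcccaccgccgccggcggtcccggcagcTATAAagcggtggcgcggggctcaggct
Pyy, chr11:102107833-102108082, minus strand: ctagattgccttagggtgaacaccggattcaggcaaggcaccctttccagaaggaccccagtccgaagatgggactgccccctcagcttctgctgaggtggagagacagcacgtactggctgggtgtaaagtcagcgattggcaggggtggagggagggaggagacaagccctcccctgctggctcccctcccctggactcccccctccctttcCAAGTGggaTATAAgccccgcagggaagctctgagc
Chga, chr12:102554691-102554940, plus strand: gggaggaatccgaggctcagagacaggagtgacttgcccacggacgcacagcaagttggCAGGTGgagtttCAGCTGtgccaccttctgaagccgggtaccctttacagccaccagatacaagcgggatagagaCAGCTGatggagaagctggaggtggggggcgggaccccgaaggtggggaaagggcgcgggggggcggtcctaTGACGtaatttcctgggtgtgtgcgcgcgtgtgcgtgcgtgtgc
No printed match overlaps another. TATAA lies 25 bases before the start of Gip, 28 before that of Sct and 27 before that of Pyy, and Chga has none in this window. RefSeq gives Pyy 2 starts, of which the printed window belongs to 1, and TATAA lies 83 bases before the other. TGACG lies 44 bases before the start of Chga and is absent from the printed windows of the 3 hormones. Promoters of all 10 genes were found in the RefSeq table. The table holds 14 windows for these genes, 4 of them for Ghrl and 2 for Pyy, and a gene was counted when any of its windows held a motif. CANNTG was present in 10 of the 10 genes, in 12 of the 14 windows (2 of the Ghrl windows lack it) and in 66.2% of 32851 promoter windows of the same length. TATAA was present in 4 genes (Gip, Sct, Pyy and Gcg), 5 of the 14 windows and 22.8% of all windows, and TGACG in 5 genes (Cck, Sst, Nts, Chga and Chgb), 5 windows and 17.8%. A match is a description of letters and not of binding.

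Depth and purity set how the values can be read. The libraries held between 970472 and 3815425 counts, and Lgr5-GFP young 1 was the deepest. Levels are given as CPM, the counts of a gene relative to the library total after TMM scaling (the trimmed mean of M values). The 13 ISC markers summed to between 8492 and 16365 CPM per library, so ISC transcripts were present in all 12 libraries. Their sum was lowest in SM6 old, at 8492 to 9796 CPM against 13357 to 16365 CPM in SM6 young. It was 13008 to 14746 CPM in Lgr5-GFP young and 11127 to 12782 CPM in Lgr5-GFP old, so SM6 old overlapped no other group. The defensins, antimicrobial peptides of Paneth cells, took 1.26% to 23.2% of the counts, with the highest shares in Lgr5-GFP young 1 (23.2%) and SM6 old 3 (23.1%). Pancreas markers were at 0 except for 1 count in 1 library, and the 8 stromal and endothelial and the 8 enteric neuron and glia markers each summed to at most 8.68 and 6.07 CPM. The 10 tuft markers summed to 81.9 CPM in Lgr5-GFP young 1 and 50.3 CPM in SM6 old 3 against 3.12 to 14.6 CPM elsewhere, and the 7 immune markers to 29.0 and 22.4 CPM in these libraries against 0.964 to 10.4 CPM. Most of these immune counts came from 1 gene, Lyz2, with 78 of 92 in Lgr5-GFP young 1 and 23 of 28 in SM6 old 3. The immune marker Ptprc had 6 and 0 counts there.

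Summed over the 10 genes, hormone and granin transcripts were far more abundant in SM6 than in Lgr5-GFP libraries. The sum was 752, 1139 and 1343 CPM in SM6 young and 1073, 1545 and 3334 CPM in SM6 old. It was 309, 133 and 159 CPM in Lgr5-GFP young and 88.0, 157 and 76.2 CPM in Lgr5-GFP old. The 6 SM6 libraries lay above the 6 Lgr5-GFP libraries, with group means of 1078 ± 300 and 1984 ± 1192 CPM against 201 ± 95.1 and 107 ± 43.6 CPM (SD, n = 3 each). SM6 young and SM6 old overlapped, and so did Lgr5-GFP young and Lgr5-GFP old. In such sorted bulk samples, fewer hormone-producing cells and less hormone RNA per cell cannot be told apart.

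**Figure D1:**
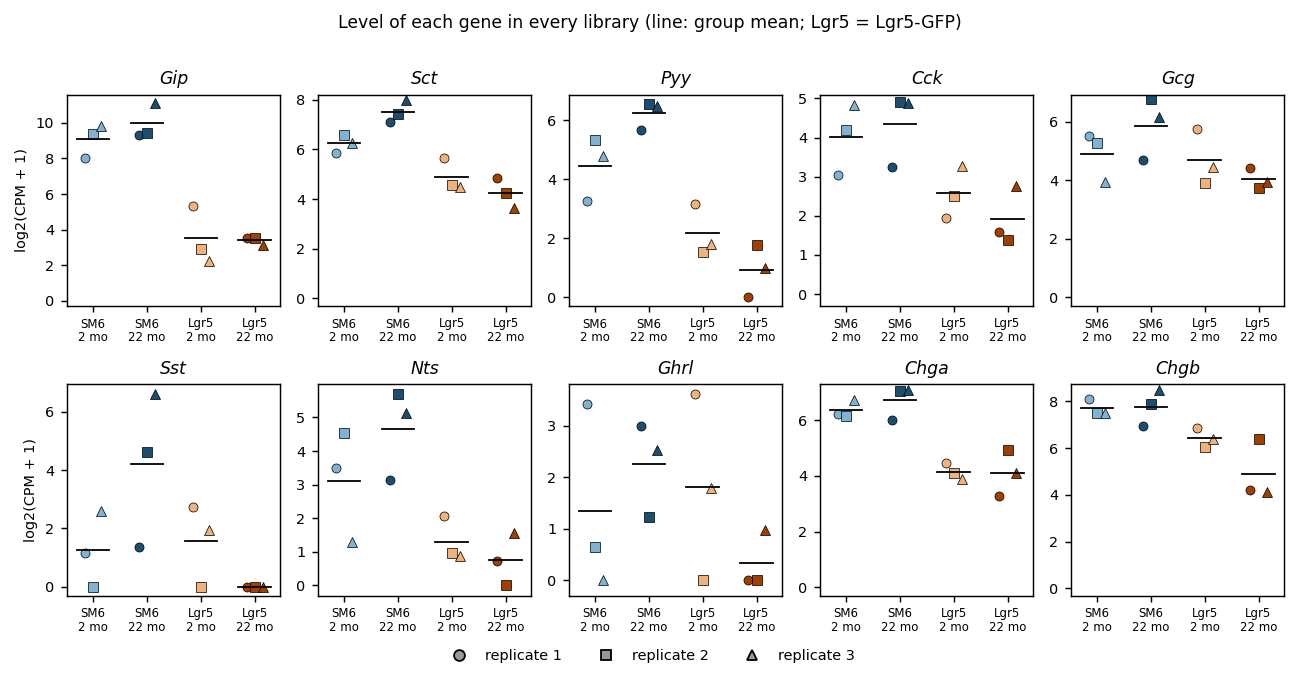
Level of each gene in every library as log2(CPM + 1), by group, with the replicate number as the symbol and the group mean of the plotted values as a line. Gip stands between 263 and 2258 CPM in the SM6 libraries and between 3.73 and 39.7 CPM in the Lgr5-GFP libraries.

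The incretin gene Gip (ENSMUSG00000014351, chr11:96024545-96030831, plus strand) encodes the peptide of K cells that augments insulin release, and it had the highest mean share of the 10 genes in both SM6 groups, in counts and per kilobase of exon. Its level was 263, 671 and 903 CPM in SM6 young and 651, 698 and 2258 CPM in SM6 old. In Lgr5-GFP young it was 39.7, 6.62 and 3.73 CPM, and in Lgr5-GFP old 10.7, 10.6 and 7.72 CPM. The lowest SM6 library held more than 6 times the Gip level of the highest Lgr5-GFP library, whereas young and old overlapped in both isolations. Gip was lower in Lgr5-GFP than in SM6 by 32.4-fold at 2 months (log2 difference -5.02, 95% interval -6.23 to -3.81, adjusted p = 0.000134, edgeR quasi-likelihood test with Benjamini-Hochberg adjustment). At 22 months the difference was 122-fold (log2 -6.93, interval -8.32 to -5.54, adjusted p = 2.47e-06). These folds moved to 128-fold without Lgr5-GFP young 1 and to 67.7-fold without SM6 old 3, and to 59.5-fold and 75.9-fold with the defensin share in the fit, and Gip stayed called in each. With age, the log2 difference was 0.97 in SM6 (SE 0.47, adjusted p = 0.382) and -0.94 in Lgr5-GFP (SE 0.72, adjusted p = 0.746). The latter turned to 1.04 without Lgr5-GFP young 1, which held 126 of the 142 Gip counts of its group.

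Gcg (ENSMUSG00000000394, chr2:62474530-62483650, minus strand) encodes the precursor of the other incretin, GLP-1, and of GLP-2 in L cells. It stood at 44.3, 38.2 and 14.5 CPM in SM6 young, 24.9, 109 and 70.3 CPM in SM6 old, 52.9, 14.2 and 20.7 CPM in Lgr5-GFP young and 20.7, 12.2 and 14.5 CPM in Lgr5-GFP old. At 2 months the isolations overlapped and the log2 difference was -0.07 (interval -0.98 to 0.84, adjusted p = 0.985). It ranged from -0.85 to 0.21 with 1 library left out, the lowest value being that without Lgr5-GFP young 1. At 22 months every Lgr5-GFP library lay below every SM6 library, and Gcg was 4.26-fold lower (log2 -2.09, SE 0.48, adjusted p = 0.0385).

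Sct (ENSMUSG00000038580, chr7:141278330-141279133, minus strand) encodes secretin, which calls forth bicarbonate from the pancreas and is made by most enteroendocrine subtypes. Its level was 57.6, 95.9 and 76.6 CPM in SM6 young and rose to 136, 173 and 252 CPM in SM6 old, with no overlap. In Lgr5-GFP it was 49.1, 22.7 and 21.5 CPM in the young and 28.0, 17.9 and 11.6 CPM in the old, which overlapped. Sct rose 2.43-fold with age in SM6 (log2 1.28, interval 0.71 to 1.86, adjusted p = 0.0106), and the difference in Lgr5-GFP was -0.72 (interval -1.44 to 0.00, adjusted p = 0.511). The difference between these age effects was itself called (log2 -2.0, interval -2.91 to -1.08, adjusted p = 0.0298). At 22 months Sct was 9.43-fold lower in Lgr5-GFP than in SM6 (adjusted p = 3.68e-06).

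Pyy (ENSMUSG00000017311, chr11:102106676-102107832, minus strand), an L cell peptide that slows gut transit and curbs appetite, followed the same order of groups as Sct. It stood at 8.50, 39.4 and 26.7 CPM in SM6 young and at 50.7, 92.3 and 89.5 CPM in SM6 old. Few counts came from Lgr5-GFP, with 25, 2 and 6 in the young and 0, 3 and 1 in the old libraries. Pyy rose 3.10-fold with age in SM6, where the groups did not overlap (log2 1.63, interval 0.82 to 2.45, adjusted p = 0.0241). At 22 months the counts summed over the group, relative to the summed library totals without TMM scaling, were 63.3-fold lower in Lgr5-GFP than in SM6, with an exact counting interval of 24.5 to 234 (fitted adjusted p = 9.09e-06). Such counting intervals, here and for Nts and Ghrl below, leave out the spread between libraries. With TMM-scaled totals the ratio of the Pyy counts was 73.5, and without Lgr5-GFP old 1 or Lgr5-GFP old 2 it was 38.3 or 170.3. The fitted fold was 42.3 without Lgr5-GFP old 1 and 164 without Lgr5-GFP old 2, and Pyy stayed called.

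Cck (ENSMUSG00000032532, chr9:121489824-121495694, minus strand) encodes cholecystokinin, the I cell peptide that empties the gall bladder. It lay between 7.28 and 29.2 CPM in the SM6 libraries and between 1.63 and 8.69 CPM in the Lgr5-GFP libraries. Young and old overlapped in both isolations, with log2 differences of 0.38 in SM6 and -0.85 in Lgr5-GFP (adjusted p = 0.816 and 0.770, edgeR). At 22 months Cck was 7.34-fold lower in Lgr5-GFP than in SM6 (log2 -2.88, SE 0.62, adjusted p = 0.0231), and 11.7-fold lower without Lgr5-GFP old 3.

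Sst (ENSMUSG00000004366, chr16:23889573-23890958, minus strand) encodes somatostatin, the D cell peptide that restrains the release of other hormones. Its counts were 2, 0 and 7 in SM6 young, 2, 35 and 121 in SM6 old, 18, 0 and 7 in Lgr5-GFP young and 0, 0 and 0 in Lgr5-GFP old. The SM6 age groups overlapped, since SM6 old 1 held as many counts as SM6 young 1, and SM6 old 3 alone held most of the signal. The fitted change with age in SM6 was 4.35 on the log2 scale (interval 2.34 to 6.37, adjusted p = 0.0154), 2.69 without SM6 old 3 (adjusted p = 0.205), 3.71 without SM6 young 2 and 5.94 without SM6 young 3. With 3 counts over the group as the floor of Lgr5-GFP old, and relative to unscaled library totals, Sst was at least 42.6-fold lower there than in SM6 old and at least 4.02-fold lower than in Lgr5-GFP young. These bounds rested on single libraries, being 15.7 without SM6 old 3 and 2.39 without Lgr5-GFP young 1. With TMM-scaled totals they were 49.5 and 4.72. Without Lgr5-GFP old 1 the smaller remaining total brought them to 25.8 and 2.43, and without Lgr5-GFP old 2 to 28.7 and 2.70. The first of these was called (adjusted p = 0.00957) and the second was not (adjusted p = 0.471).

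Nts (ENSMUSG00000019890, chr10:102481756-102490486, minus strand) encodes neurotensin, which promotes fat uptake. Its counts were 17, 40 and 2 in SM6 young, 10, 75 and 43 in SM6 old, 10, 1 and 2 in Lgr5-GFP young and 1, 0 and 2 in Lgr5-GFP old. The age groups overlapped in both isolations. At 22 months the summed counts relative to unscaled totals were 34.5-fold lower in Lgr5-GFP than in SM6 (exact counting interval 11.5 to 169, fitted adjusted p = 0.00374). The ratio was 40.1 with TMM-scaled totals, 21.7 without SM6 old 2 and 74.6 without Lgr5-GFP old 3. The fitted log2 value moved from -5.15 to -6.15 without Lgr5-GFP old 3.

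Ghrl (ENSMUSG00000064177, chr6:113716119-113719880, minus strand) encodes the appetite-stimulating peptide ghrelin. Among the 10 genes it was the only one whose highest CPM was in an Lgr5-GFP library. Its counts were 16, 1 and 0 in SM6 young, 9, 2 and 6 in SM6 old, 36, 0 and 6 in Lgr5-GFP young and 0, 0 and 1 in Lgr5-GFP old. Ghrl was called in no comparison, and at 22 months its summed counts relative to unscaled totals were 13.7-fold lower in Lgr5-GFP (exact counting interval 2.15 to 574, fitted adjusted p = 0.472). The ratio was 16.0 with TMM-scaled totals and 8.33 without Lgr5-GFP old 1. The single count of the old group came from Lgr5-GFP old 3, and without that library the ratio was at least 3.30, with the floor of 3 counts. Exons of the opposite-strand genes Gm26982 and Gm44033 overlap Ghrl, and whether counting used the strand was not stated, so reads of these genes cannot be told apart.

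The granin Chga (ENSMUSG00000021194, chr12:102554969-102565028, plus strand), which drives granule formation and serves as a general marker of endocrine cells, separated the isolations at both ages. Its level was 73.4, 70.9 and 106 CPM in SM6 young and 63.1, 133 and 136 CPM in SM6 old. In Lgr5-GFP it was 21.1, 16.1 and 13.7 CPM in the young and 8.66, 29.3 and 16.4 CPM in the old. All 6 SM6 libraries exceeded all 6 Lgr5-GFP libraries, and young and old overlapped in both. Chga was 4.81-fold lower in Lgr5-GFP at 2 months (log2 -2.27, SE 0.32, adjusted p = 0.00121) and 6.21-fold lower at 22 months (log2 -2.63, SE 0.34, adjusted p = 9.4e-05). The age differences did not pass, with log2 values of 0.41 in SM6 (interval -0.17 to 0.99) and 0.04 in Lgr5-GFP (interval -0.73 to 0.82).

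Chgb (ENSMUSG00000027350, chr2:132781278-132795079, plus strand), the other granin, also separated the isolations. It stood at 277, 183 and 182 CPM in SM6 young, 123, 235 and 363 CPM in SM6 old, 116, 66.2 and 82.0 CPM in Lgr5-GFP young and 17.3, 82.9 and 16.4 CPM in Lgr5-GFP old. SM6 lay above Lgr5-GFP at either age with no overlap, whereas young and old overlapped in both isolations. At 2 months the log2 difference was -1.26 (SE 0.38, adjusted p = 0.354), which passed with only the 6 libraries compared in the fit (-1.24, adjusted p = 0.0173), and at 22 months Chgb was 6.18-fold lower in Lgr5-GFP (log2 -2.63, SE 0.42, adjusted p = 0.00134). Lgr5-GFP old 2 held 102 of the 145 Chgb counts of its group, and without it the fold was 14.1. Its age difference in Lgr5-GFP was -1.20 on the log2 scale (SE 0.42, adjusted p = 0.288). Without Lgr5-GFP old 2 it was -2.4 and was called (adjusted p = 0.00352, edgeR).

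The first comparison asked which of these genes differed between the SM6 old and SM6 young groups. Sct, Pyy and Sst were called and all 3 rose, whereas 0 fell. That is 3 of 10 genes, against 2.42% of the 13368 genes tested, with 0.643% of all genes higher and 1.77% lower. The libraries of Sct and Pyy did not overlap between the ages (2 of 10 genes, against 7.74% of all genes tested that were higher with no overlap, and 0 of 10 against 9.78% that were lower). All 10 log2 differences were positive, with a median of 1.02 against -0.01 over all tested genes. The count was 0 without SM6 young 1, 0 without SM6 old 3 and 0 when the defensin share was added to the fit. Without SM6 young 1 the log2 values of Sct, Pyy and Sst were 1.11, 1.22 and 4.11 (adjusted p = 0.0648, 0.0946 and 0.0638, edgeR), and without SM6 old 3 they were 1.02, 1.53 and 2.69 (adjusted p = 0.0520, 0.0579 and 0.205). Pyy was also lost without SM6 young 3 (adjusted p = 0.0753) and SM6 old 2 (0.137), and Sst without SM6 young 2 (0.0996). With the defensin share in the fit the values were 0.99, 1.59 and 2.95 (adjusted p = 0.102, 0.0745 and 0.157). DESeq2 kept Sct but not Pyy (1.66, adjusted p = 0.230) or Sst (4.32, adjusted p = 0.2997), and limma voom did not keep Sst (3.62, adjusted p = 0.177). Beside it, 5 of the 7 goblet markers were called higher. Their sum went from 5705 to 9116 CPM in the young to 17307 to 18224 CPM in the old. Of the 10 enterocyte markers 4 and of the 9 Paneth markers 2 were called higher. Of the 13 ISC markers 3 (Olfm4, Znrf3 and Sox9) were called lower. All 7 goblet, all 9 Paneth and 9 of the 10 enterocyte markers had positive values, with median log2 differences of 1.13, 2.18 and 1.26. Of the 13 ISC markers 11 were negative (median -0.35). The part of the goblet, enterocyte and ISC markers in the result was not tested.

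In Lgr5-GFP, old against young gave 0 of 10 genes called, against 0.471% of all genes tested by the edgeR quasi-likelihood test (0.187% higher and 0.284% lower). No gene of the 10 had libraries that did not overlap, against 6.61% of all tested genes higher and 7.95% lower. At an unadjusted p under 0.05, 4 of the 10 (Pyy, Sst, Ghrl and Chgb) and 1309 of all tested genes passed, and DESeq2 also called 0. The count was 1 without Lgr5-GFP old 2, when Chgb was called (log2 -2.4, adjusted p = 0.00352, edgeR). Of the log2 differences 9 were negative, with a median of -1.06 that did not move with Sst at its bound, against -0.03 over all tested genes. Lgr5-GFP young 1, the library with the highest defensin share, held the highest level of its group for 9 of the 10 genes, and Cck was the exception. The 9 Paneth markers summed to 56813 to 316559 CPM in the young and 22781 to 38962 CPM in the old. Called lower were 2 of them and 3 of the 10 enterocyte markers. All 9 Paneth markers had negative values (median log2 difference -2.67), as did 7 of the 10 enterocyte (-1.10) and 6 of the 7 goblet markers (-0.61). With the defensin share in the fit 0 of the 10 genes were called by edgeR as well, and 9 of the log2 differences were again negative. Those of Gip, Gcg, Nts and Sct moved to -0.14, -0.11, -0.29 and -0.28 from -0.94, -0.96, -1.16 and -0.72 without it. The values of Sst, Ghrl and Chgb moved to -3.73, -1.48 and -0.60 from -5.52, -3.94 and -1.20, and that of Pyy to -2.01 from -2.07. Cck moved away from 0, to -1.36 from -0.85, and so did Chga, to 0.14 from 0.04. The part of the enterocyte markers in the values was not tested.

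Both age effects were then compared by an interaction term. Sct alone was called, 1 of 10 genes against 0.658% of all genes tested, and against 0.606% counting only lower effects. All 10 differences were negative (Lgr5-GFP minus SM6), with a median of -2.01 against 0.00 over all tested genes. Next to Sct stood Sst and Pyy, with adjusted p-values of 0.0524 and 0.0938. Sst passed without SM6 young 3 (edgeR adjusted p = 0.0448), SM6 old 1 (0.00580) or Lgr5-GFP young 2 (0.0427), Pyy without SM6 young 2 (0.0479), and Chgb without Lgr5-GFP old 2 (log2 -2.56, 0.0154). The call of Sct was lost without SM6 young 1 (log2 -1.83, edgeR adjusted p = 0.0781), SM6 young 3 (adjusted p = 0.0717), SM6 old 3 (log2 -1.73, 0.0684), Lgr5-GFP young 1 (log2 -1.44, 0.223), Lgr5-GFP old 2 (0.0929) or Lgr5-GFP old 3 (0.0920). It was also lost with library totals alone (-1.56, adjusted p = 0.0550), limma voom (-1.66, 0.144) and the defensin share in the fit (-1.27, 0.665). Without both libraries of highest defensin share, chosen after seeing the data, it was -1.17 (adjusted p = 0.295). In the same test all 9 Paneth markers, 5 of 10 enterocyte markers and 3 of 7 goblet markers were called, each lower. Negative values were found in all 9 Paneth, 9 of 10 enterocyte and all 7 goblet markers, with medians of -5.13, -2.47 and -1.74. The part of the enterocyte and goblet markers was not tested.

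**Figure D2:**
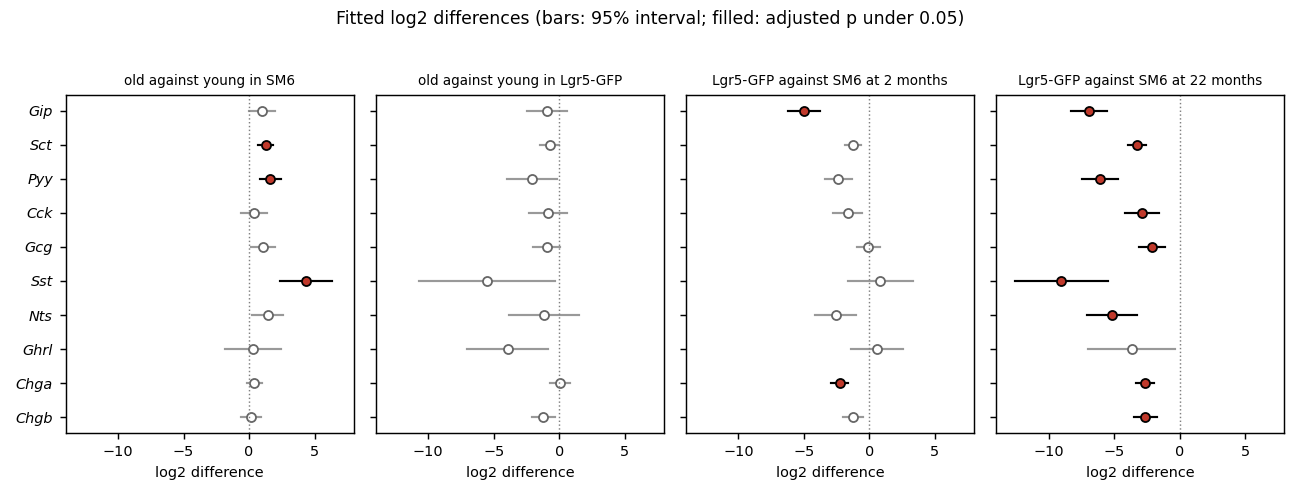
Fitted log2 differences of the 10 genes in 4 comparisons with 95% intervals from the quasi-likelihood fit, filled where the adjusted p was under 0.05. Filled points number 3 for age in SM6, 0 for age in Lgr5-GFP, 2 between isolations at 2 months and 9 at 22 months, and the Sst values against Lgr5-GFP old rest on a group at 0.

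Between the isolations at 2 months, Gip and Chga were lower in Lgr5-GFP, 2 of 10 genes against 0.0898% of all genes tested, and against 0.0374% counting only lower genes. These are 2 of only 12 genes called in this comparison. Gip, Sct, Pyy, Chga and Chgb did not overlap between the isolations (5 of 10 genes, against 7.35% of all tested genes that were lower with no overlap, and 0 of 10 against 6.38% that were higher). The median log2 difference was -1.46, against -0.01 over all tested genes, and Pyy stood next to the threshold (log2 -2.39, adjusted p = 0.0546). Without Lgr5-GFP young 1 the count was 4, with Sct (log2 -1.80, adjusted p = 0.0147, edgeR) and Pyy (-3.40, 0.0228) added. Pyy also passed without SM6 young 1 (adjusted p = 0.00666), SM6 old 3 (0.0418) or Lgr5-GFP old 2 (0.0478). With the 6 libraries of this comparison alone in the fit, Chgb was called (log2 -1.24, edgeR adjusted p = 0.0173). Sct was called by DESeq2 (adjusted p = 0.0460), and with library totals alone both Sct (0.0123, edgeR) and Pyy (0.00676) passed. The 3 markers of the proximal small intestine summed to 90.3 to 106 CPM in SM6 and 111 to 133 CPM in Lgr5-GFP. Of the Paneth, goblet, enterocyte, tuft and ISC markers, 0 were called in this comparison by the edgeR quasi-likelihood test. All 9 Paneth markers had positive values (median log2 difference 2.4, higher in Lgr5-GFP), as did all 8 tested tuft markers (3.28) and 9 of the 10 enterocyte markers (0.61), while 5 of the 7 goblet markers were negative (-0.18). With the defensin share in the fit Gip and Chga were again the genes called.

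At 22 months 9 of the 10 genes were lower in Lgr5-GFP than in SM6, against 0.718% of all genes tested and 0.673% counting only lower genes, and Ghrl was the exception. The libraries of all 10 genes did not overlap between the isolations, all 10 lower, against 7.41% of tested genes that were lower and 6.13% that were higher with no overlap. The median log2 difference was -3.45, also with Sst at its bound, against 0.00 over all tested genes. Leaving out each library in turn gave between 6 and 9 genes, with 6 without SM6 old 3 and 6 without Lgr5-GFP old 1. Without SM6 old 3 the adjusted p-values of Cck, Gcg and Sst were 0.0711, 0.0674 and 0.0597 in edgeR, and without Lgr5-GFP old 1 they were 0.147, 0.0965 and 0.0649. Cck was also lost without SM6 old 2 (0.116) or Lgr5-GFP old 2 (0.136), Gcg without SM6 old 2 (0.295), Lgr5-GFP old 2 (0.187) or Lgr5-GFP old 3 (0.166), and Sst without Lgr5-GFP old 3 (0.0512). Gip, Sct, Pyy, Nts, Chga and Chgb passed with each library left out. Limma voom lost Cck (0.142), Gcg (0.225), Sst (0.280) and Nts (0.153), the defensin share in the fit lost Gcg (0.261) and Sst (0.101), and DESeq2 (0.108) and the filterByExpr filter (0.0532) lost Gcg. Sst did not pass the filterByExpr filter and was not tested with it. The comparisons share libraries with those by age, so the values stand side by side and are not independent. Beside them, 6 of 7 goblet markers, 5 of 10 enterocyte markers and 1 of 9 Paneth markers were called lower. Of the 13 ISC markers 1 (Slc12a2) was called higher. All 9 Paneth markers had negative values (median log2 difference -2.73), and all 9 were lower with no overlap between the isolations. All 7 goblet markers (-2.07) and 9 of the 10 enterocyte markers (-1.44) were negative too, with 5 of each lower with no overlap. Among markers of the distal small intestine, Fabp6 was called lower (log2 -2.09, adjusted p = 0.0498), and Slc10a2 (-0.34, adjusted p = 0.969) and Osr2 (-0.60, adjusted p = 0.297, edgeR) were not called. The 3 proximal markers (Gata4, Onecut2 and Pdx1) had positive values with 0 called by edgeR, and their sum was 48.9 to 104 CPM in SM6 and 103 to 125 CPM in Lgr5-GFP, which overlapped. The part of the goblet, enterocyte and ISC markers and of the gut region in the result was not tested.

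**Figure D3:**
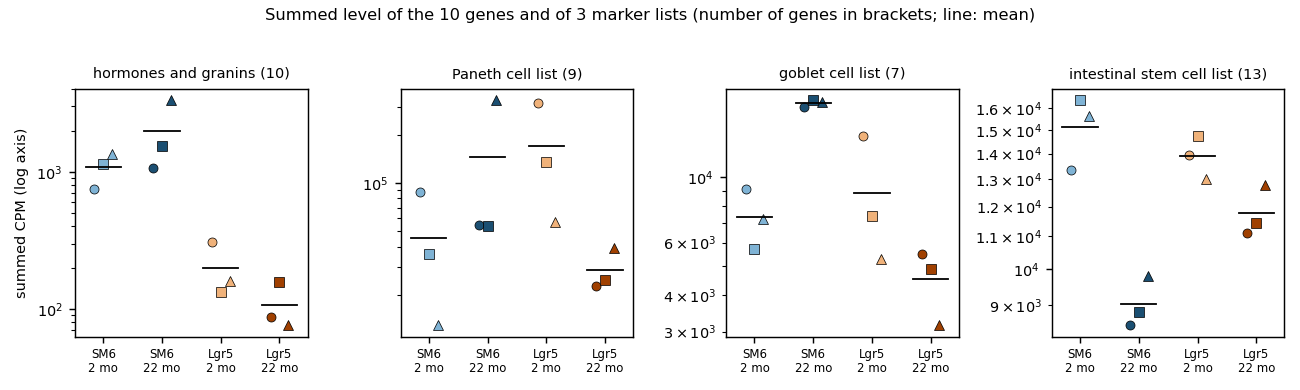
Summed CPM per library, on log axes, of the 10 hormone and granin genes and of the Paneth, goblet and ISC marker lists, with the mean of each group as a line. The hormone and granin sum is 752 to 3334 CPM in SM6 and 76.2 to 309 CPM in Lgr5-GFP. The Paneth sums of the isolations overlap in the young groups but not in the old groups. They are 54156 to 330067 CPM in SM6 old and 22781 to 38962 CPM in Lgr5-GFP old. The goblet sums also overlap only in the young groups, with 17307 to 18224 CPM in SM6 old and 3153 to 5495 CPM in Lgr5-GFP old.

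Gip filled a larger share of the hormone and granin counts in every SM6 library than in any Lgr5-GFP library. It supplied 34.9% to 67.2% of the summed counts in SM6 young and 45.2% to 67.7% in SM6 old, but 2.34% to 12.8% in Lgr5-GFP young and 6.74% to 12.1% in Lgr5-GFP old. Counts of 3-prime libraries need not scale with exon length, so shares between genes are given in counts and per kilobase of exon. Per kilobase Gip made up 70.5% ± 12.1 of the pool in SM6 young and 68.9% ± 9.59 in SM6 old (SD, n = 3). In Lgr5-GFP young it made up 12.8% ± 8.98 and in Lgr5-GFP old 17.7% ± 1.69. Which gene led in Lgr5-GFP depended on the scale. In counts it was Chgb, with 46.2% ± 7.70 in the young and 31.4% ± 18.6 in the old, against 15.5% ± 1.77 and 19.5% ± 10.9 for Sct. Per kilobase it was Sct, with 33.3% ± 4.46 and 36.8% ± 12.8, against 23.8% ± 6.35 and 16.2% ± 12.9 for Chgb.

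**Figure D4:**
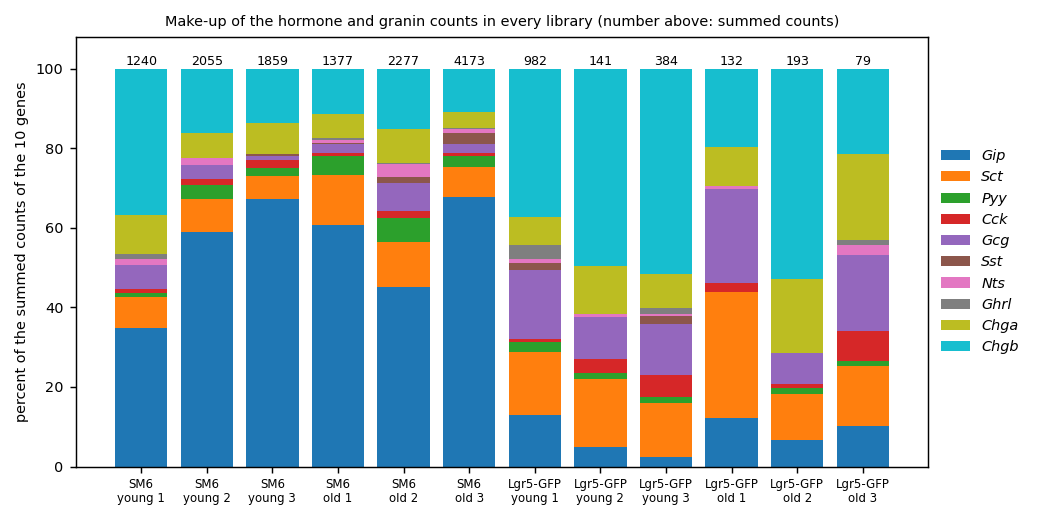
Percent of the summed counts of the 10 genes that each gene supplied in every library, with the number of summed counts above each bar. Gip fills 34.9% to 67.7% of the SM6 bars and 2.34% to 12.8% of the Lgr5-GFP bars, which rest on 79 to 982 counts.

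To set the hormones against endocrine RNA as a whole, each gene was divided by Chga within a library. This ratio was chosen after the levels had been seen, so its p-values describe a pattern already visible in them. Gip counts per Chga count were 3.58, 9.46 and 8.50 in SM6 young and 10.3, 5.25 and 16.6 in SM6 old. They were 1.88, 0.412 and 0.273 in Lgr5-GFP young and 1.23, 0.361 and 0.471 in Lgr5-GFP old. Every SM6 ratio lay above every Lgr5-GFP ratio. On the log2 scale of CPM + 1 the ratio was -3.65 in Lgr5-GFP relative to SM6, -3.35 at 2 months and -3.96 at 22 months. An exact permutation test that exchanged isolations within each age gave p = 0.005, the smallest that its 400 arrangements allow, and 0.045 after adjustment over 9 ratios (two-sided). The adjusted value was 0.09 when any SM6 young library was left out, with ratios of -3.88, -3.53 and -3.56 without SM6 young 1, 2 and 3. Gcg stood higher relative to Chga (1.40, exact p = 0.03, adjusted 0.135), by 2.02 at 2 months and 0.78 at 22 months, and it passed only without Lgr5-GFP old 2 (1.68, adjusted 0.045, exact permutation test). Pyy stood lower (-1.39, exact p = 0.045, adjusted 0.135), by -0.065 at 2 months and -2.71 at 22 months, and did not pass. For Chgb the ratio was 0.34 (exact p = 0.33, adjusted 0.51), at 0.95 at 2 months and -0.26 at 22 months. Sct, Cck, Sst and Nts stood at 0.12, 0.48, 0.48 and -0.43 (adjusted 0.795, 0.51, 0.731 and 0.726, exact permutation test). At 2 months their values were 0.88, 0.79, 2.55 and 0.42, and at 22 months -0.64, 0.17, -1.58 and -1.28. The ratio of Ghrl, 1.69 (adjusted 0.236, exact permutation test), passed only with 5 CPM added in place of 1 (1.89, adjusted 0.045).

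**Figure D5:**
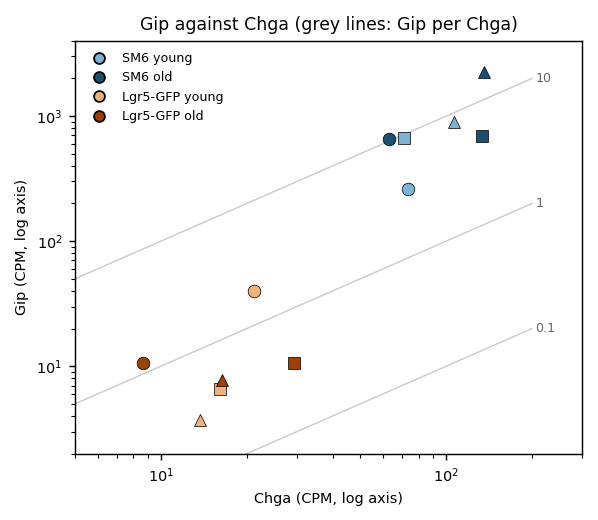
Gip against Chga in CPM, both on log axes, with 1 point per library, replicates by symbol and groups by colour, and grey lines at 0.1, 1 and 10 Gip per Chga. The SM6 libraries lie between 3.58 and 16.6 Gip per Chga and the Lgr5-GFP libraries between 0.273 and 1.88.

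Other genes of the endocrine programme gave few calls. Of 12 further hormones and amine enzymes, 5 were at 0 in every library and 4 were tested, of which 0 were called in the 5 comparisons. Their median log2 difference was 0.28 for age in SM6, -0.19 for age in Lgr5-GFP and -2.15 between the isolations at 22 months, beside -0.01, -0.03 and 0.00 over all tested genes. The most abundant were Ddc, which makes serotonin and dopamine from their precursors, Tac1, the substance P precursor, and Tph1, the rate-limiting enzyme of gut serotonin. Ddc stood at 45.9 ± 9.89, 56.7 ± 15.9, 44.5 ± 3.69 and 41.6 ± 17.1 CPM in SM6 young, SM6 old, Lgr5-GFP young and Lgr5-GFP old (SD, n = 3 each). Its log2 difference between the isolations was -0.03 at 2 months (SE 0.26) and -0.43 at 22 months (SE 0.27). Tac1 went from 13.1 ± 2.04 CPM in SM6 young to 4.25 ± 0.817 CPM in Lgr5-GFP young (log2 -1.62, SE 0.55, adjusted p = 0.464, edgeR). Tph1 stood at 4.93 ± 4.42 (young) and 7.35 ± 2.66 CPM (old) in the SM6 groups and at 3.32 ± 1.09 (young) and 1.58 ± 2.18 CPM (old) in the Lgr5-GFP groups.

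Of 23 genes of prohormone processing and the secretory granule, 16 were tested. Pam, the enzyme that amidates peptide ends, fell with age in SM6 from 57.0, 74.3 and 70.8 CPM to 13.2, 30.5 and 47.9 CPM (log2 -1.14, SE 0.31, adjusted p = 0.0495). Aplp1 was lower in Lgr5-GFP than in SM6 at 22 months (log2 -3.59, SE 0.84, adjusted p = 0.0401), at 0.666, 0 and 0.964 CPM against 5.46, 6.79 and 9.59 CPM. The call of Pam was lost in 11 of 23 alternatives (adjusted p from 0.0524 to 0.273), among them the removal of any SM6 young library, of SM6 old 1 (log2 -0.77) or of SM6 old 2. That of Aplp1 was lost in 15 of 21 (0.0512 to 0.201), among them the removal of any SM6 library or any Lgr5-GFP old library. Each was the only 1 of the 16 called in its comparison, against 2.42% and 0.718% of all genes tested. The median log2 difference of the 16 was 0.50 for age in SM6, -0.72 for age in Lgr5-GFP and -1.72 between the isolations at 22 months.

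Of 16 enteroendocrine transcription factors 11 were tested, and Sox4, a factor of early crypt progenitors and also of other cells, fell with age in SM6 (79.1 ± 7.03 to 45.0 ± 11.1 CPM, log2 -0.82, SE 0.21, adjusted p = 0.0360). The call was lost without any SM6 young library (adjusted p from 0.0668 to 0.183, edgeR) and without SM6 old 1 (0.149) or SM6 old 2 (0.217). This was 1 of 11 factors called, against 2.42% of all genes tested. Mnx1 stood at 10.9, 8.87 and 13.7 CPM in SM6 young and at 3.12, 3.39 and 3.99 CPM in SM6 old, with no overlap (log2 -1.65, adjusted p = 0.143, edgeR). Neurod1, a factor of committed enteroendocrine cells, stood at 4.2 ± 3.92 and 6.76 ± 4.61 CPM. Neither was called in a comparison. The median log2 difference of the 11 was 0.73 for age in SM6, -0.78 for age in Lgr5-GFP and -1.11 between the isolations at 22 months. For age in SM6, Sox4 and Mnx1 were the 2 factors with a negative value, and the summed level of all 16 listed was 106 ± 6.94 CPM in the young and 83.1 ± 27.6 CPM in the old.

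Of 13 nutrient sensors 6 were tested. Ffar2, a receptor of short-chain fatty acids, was lower in Lgr5-GFP than in SM6 at 22 months (log2 -2.51, SE 0.55, adjusted p = 0.0262), at 4.67, 3.25 and 0.964 CPM against 13.2, 18.3 and 23.2 CPM. It was lost without SM6 old 2 (adjusted p = 0.0710, edgeR), SM6 old 3 (0.0933) or any Lgr5-GFP old library (0.0544 to 0.161), and with limma voom (0.0706) or the defensin share in the fit (0.242). This was 1 of 6 sensors called, against 0.718% of all genes tested. The median log2 difference of the 6 was 1.05 for age in SM6, 0.09 for age in Lgr5-GFP and -1.72 between the isolations at 22 months. The long-chain fatty acid receptor Ffar4 was called in no comparison, with 10.5 ± 1.94 CPM in SM6 old and 7.45 ± 8.69 CPM in Lgr5-GFP old. Of 18 receptors of the hormones 12 were at 0 in every library and none reached the filter, with at most 4 counts of a receptor in a library. The peptidases Dpp4, which inactivates the incretins, and Mme were tested and 0 of these 2 were called in any comparison. Dpp4 stood between 114 and 164 CPM in all 12 libraries.

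Genes outside the list were ranked by the Pearson correlation of log2(CPM + 1) over the 12 libraries, as a description. Most like the summed level of the 10 genes were Gpx3 (r = 0.94), Scgn (0.92), Rbp4 (0.92), Rgs4 (0.91) and Aplp1 (0.90). Scgn encodes secretagogin, a calcium sensor of endocrine cells, and Rbp4 a carrier of retinol. Gpx3, Rbp4 and Rgs4 also led for Chga (0.88 each), followed by Mpi and Fhl3 (0.86 each). For Chgb the order was Gm15946 (0.93), Tac1 (0.90), Slc38a10 (0.89), Relch (0.89) and Fhl3 (0.88). The points share the split between isolations, and several of these genes were at 0 in at least 1 library.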

How the data were processed

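Poly(A) RNA of sorted ISCs was sequenced as 3-prime libraries, 3 per group and each from an individual mouse. The authors aligned the reads to GRCm38 with STAR 2.4.2a and used featureCounts with GENCODE vM15 exons, and the values deposited are raw counts per gene. Unique molecular identifiers were added, but their collapse and the strand setting were not stated. Exact counting intervals and floors treat every count as an independent molecule and leave out the spread between libraries. They are too narrow if reads of the same molecule were counted more than once. Gene positions were read from GENCODE vM21, which uses this build.

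Library totals ran from 970472 to 3815425 counts. Genes with more than 5 reads and at least 1 CPM in at least 1 library were kept (13368 genes). CPM used TMM-scaled totals. A quasi-likelihood model (edgeR 4.0.16 in R 4.3.3) of the 4 groups took in all 12 libraries, with two-sided tests adjusted by Benjamini-Hochberg over all tested genes and called at an adjusted p under 0.05. The other 95% intervals used the t distribution of the fit and include the spread between libraries. Ratios of summed group counts and their floors used the library totals without TMM scaling. A count of 0 was taken to allow 3 counts over the group, and 1 CPM was added before ratios to Chga. The scripts were tested on simulated counts.

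The members and lists were chosen with earlier results of these data known. Named were the 10 members, every called gene of the related lists, up to 6 per list and comparison, and otherwise the 3 genes of highest mean CPM. For likeness, the 5 genes of highest correlation were named. Called marker genes of other cell types and the genes just under a threshold were named after their values were seen. The alternatives were DESeq2 1.42.0, limma 3.58.1, other filters and scalings, a covariate and libraries left out. Ratios to Chga, other totals for the group ratios and the joint removal of 2 libraries were added after seeing the data. Within groups, library pairs differed by more than sampling noise (chi-square per degree of freedom at least 3.61). Protein sequences were not used here. Figures were drawn with matplotlib 3.10.9.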

Additional observations from a re-analysis of the deposited data

Results flagged for a closer look

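The age effect of Sct differed between the isolations by the interaction test, with a log2 difference of -2.0 (Lgr5-GFP minus SM6, edgeR adjusted p = 0.0298). This call was lost in 10 of 22 alternatives, with adjusted p from 0.0550 to 0.665, and the value fell in size to -1.17 without both libraries of highest defensin share. Sct was higher in all 3 SM6 old libraries than in any SM6 young library, and the Lgr5-GFP ages overlapped. The same test called 9 of 9 Paneth markers, 3 of 7 goblet markers and 5 of 10 enterocyte markers, each with a lower age effect in Lgr5-GFP. Groups of 3 libraries were not tested for outlying samples.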

How the results depend on the processing

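The counts of members called (age in SM6, age in Lgr5-GFP, difference of the age effects, isolations at 2 months and isolations at 22 months) were 3, 0, 1, 2 and 9. With no filter beyond 1 count they were 6, 4, 6, 7 and 9, and over all genes 603, 274, 224, 125 and 228 of 23621 were then called, against 323, 63, 88, 12 and 96 of 13368. DESeq2 gave 1 for age in SM6, and it gave no adjusted p for Ghrl in 4 comparisons and for Cck, Sst and Nts in 1. The filterByExpr filter removed Sst, which therefore had no value under it in any comparison. The defensin share as a covariate gave 0 for age in SM6 and 0 for the difference of the age effects. The likelihood ratio test gave 3 for that difference and 4 at 2 months, limma voom 0 for that difference and 5 at 22 months, and library totals alone 4 at 2 months. With 1 library left out at a time, the counts ranged from 0 to 3, 0 to 1, 0 to 2, 2 to 4 and 6 to 9. Where the removal left 2 libraries in a group, the pooled spread was used. Without both libraries of highest defensin share, an alternative chosen after seeing the data, they were 2, 0, 0, 4 and 8. The groups share replicate numbers, but libraries of the same number did not deviate together (r from -0.13 to 0.23), and a replicate block gave 3 calls (Sct, Pyy and Sst) for the difference of the age effects, with the other 4 counts as without it.

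Of 1128 values of single members under these alternatives, 1011 kept direction and side of the threshold, 41 passed it anew, 47 lost it and 29 changed sign. The last were all uncalled. For age in SM6, Ghrl turned to -0.39 with the defensin covariate and to -0.22 without SM6 young 2 or 3 and -0.19 without SM6 old 1 (range with a library left out -0.22 to 3.50), and Chgb to -0.031 with totals alone, -0.027 with limma voom, -0.24 with the covariate or without both libraries of highest defensin share and -0.25 without SM6 old 3 (-0.25 to 0.50). For age in Lgr5-GFP, Gip turned to 1.04 without Lgr5-GFP young 1 (-1.44 to 1.04) and 1.05 without both, and Chga to -0.36 with limma voom, -0.044 with the replicate block, -0.11 without Lgr5-GFP young 3 and -0.51 without Lgr5-GFP old 2 (-0.51 to 0.42). For the difference of the age effects, Gip turned to 0.067 without Lgr5-GFP young 1 (-2.41 to 0.067) and 0.90 without both, and Chga to 0.042 with totals alone, 0.0094 without Lgr5-GFP old 1 (-0.93 to 0.0094) and 0.035 without both. At 2 months, Gcg turned to 0.21, 0.06, 0.19 and 0.16 without SM6 young 1, SM6 young 2, Lgr5-GFP young 2 or Lgr5-GFP young 3 (-0.85 to 0.21), Sst to -0.62 with the covariate and -0.072 without both, and Ghrl to -0.95 with the covariate, -1.12 without Lgr5-GFP young 1 (-1.12 to 3.77) and -1.11 without both. Relative to Chga, Nts turned to 0.44 with 5 CPM added, Sst to -0.046 without SM6 old 1 (-0.046 to 0.99) and Sct to -0.24 without Lgr5-GFP old 1 (-0.24 to 0.33). The causes were not tested. In Lgr5-GFP old, Sst, Nts, Ghrl and Pyy had 0, 3, 1 and 4 counts over the group.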
